A study of Macaca mulatta with 24 samples.

Results

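The transcripts of 10 neutrophil primary granule genes were followed in whole blood of rhesus macaques before and after 4 Gy of total body irradiation. The genes were the granule proteases ELANE, PRTN3 and CTSG, the protease-like protein AZU1, the granule proteins MPO, BPI and RNASE3, the granule membrane protein CD63, the cytosolic protease inhibitor SERPINB1 and the transcription factor CEBPE. Members were all non-control probes of the scanner output that carry one of these 10 gene names. The rule found 12 probes of 9 genes among 43603 probes in all. No probe carried the name PRTN3, and 1 further probe, which the array design describes as proteinase 3 and whose accession belongs to PRTN3, is given beside the members. Testing required a signal that the scanner marked as well above background on 4 or more of the 24 arrays. This held for 11 of the 12 member probes and all 9 genes, and the brightest probe stands for its gene.

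One-colour rhesus arrays measured 7 animals before irradiation, 4 at day 3 (animals 1, 2, 4 and 7), 6 at day 5 (all but animal 5) and 7 at day 7. All were adult macaques of Chinese origin, animals 1 to 4 male and 5 to 7 female, every animal received 4 Gy, and each was its own unirradiated baseline, so time since the first sample and irradiation cannot be told apart. The labels name X-rays and the study's methods a cobalt gamma source. Blood was drawn into RNA-stabilising tubes without cell sorting and globin transcripts were depleted. In bulk blood, fewer cells of a type and less RNA per cell cannot be told apart. Between 48.3 and 61.1% of the probes on an array were well above background. Session 1 of scanning held 6 pre-irradiation and 6 day 7 arrays, and session 2 held the pre-irradiation array of animal 5, all day 3 and day 5 arrays and the day 7 array of animal 5. Marker genes of mature neutrophils were present: 15 of 17 had a probe and all 15 were tested, among them FCGR3, the neutrophil and NK-cell Fc receptor, and FFAR2, a short-chain fatty acid receptor.

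Primary or azurophil granules form in bone marrow promyelocytes, and most of their contents are transcribed in a short window of maturation. CEBPE acts at the later step from promyelocyte to myelocyte. Circulating neutrophils carry the stored proteins but little of the matching RNA, so in blood these transcripts are known mainly from immature cells released from marrow.

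The probes of the granule serine protease family are printed because the members called lower, ELANE and CTSG, and AZU1, which was not called, rest on these single 60-base probes. AZU1, PRTN3 and ELANE lie in this order on the plus strand of chromosome 19 and CTSG on the minus strand of chromosome 7, in the rheMac2 build of the file headers. Positions are chr19:569392-569451 for AZU1, chr19:584921-584980 for the PRTN3 probe, chr19:592828-592887 for ELANE and chr7:87449513-87449572 for CTSG. Exons and untranslated regions were not assigned, since no annotation of that build was used here. The probe sequences are, 5′ to 3′ and as in the deposited scanner output:
AZU1: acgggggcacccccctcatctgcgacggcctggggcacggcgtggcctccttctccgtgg
PRTN3: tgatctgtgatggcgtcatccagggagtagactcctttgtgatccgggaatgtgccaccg
ELANE: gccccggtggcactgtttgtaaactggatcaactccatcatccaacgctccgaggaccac
CTSG: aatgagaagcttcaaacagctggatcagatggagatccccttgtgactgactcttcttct

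The probe of CTSG (cathepsin G) was called lower than before irradiation on all 3 days and that of ELANE (neutrophil elastase) at days 5 and 7, and none of the other 7 genes tested was called lower on any day. Both probes passed the filter mainly through their pre-irradiation arrays and were mostly at background afterwards. Without the filter only CTSG at day 5 was called, and with normexp background correction neither was, with changes just above 0 at day 5. A change was called where limma gave an adjusted p (Benjamini-Hochberg, all probes tested) under 0.005, and levels are log2 processed signals on the scale of the median array. At day 3, 1 of the 9 genes was lower (CTSG) and 3 were higher (RNASE3, CD63 and CEBPE), where 7.59% of all named genes tested were called lower and 5.97% higher. At day 5, 2 of 9 were lower (ELANE and CTSG) and 0 higher, where 9.12% of all genes were called lower and 6.24% higher. At day 7, the same 2 genes, ELANE and CTSG, were lower and 0 higher, where 7.19% of genes were lower and 2.67% higher. At an unadjusted p under 0.05, 8, 5 and 4 of the 9 genes differed from pre-irradiation at days 3, 5 and 7, where 5110 of 10880, 4776 of 10883 and 4157 of 10883 genes did. For days 3, 5 and 7 the median log2 change of the 9 genes was 0.98, 0.49 and 0.37, beside medians of −0.0031, −0.0048 and −0.012 over all genes. Over the alternatives the median of the members ran from 0.70 to 1.19 at day 3, from 0.15 (normexp) to 0.78 (no filter) at day 5 and from 0.16 (without animal 7) to 0.64 (no filter) at day 7. The 3 days share the same 7 pre-irradiation arrays, so these comparisons are not independent of each other. Where groups of a member are said below not to overlap, the share of all genes that do the same was not counted. Such separation is therefore not shown to be particular to the members.

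**Figure D1:**
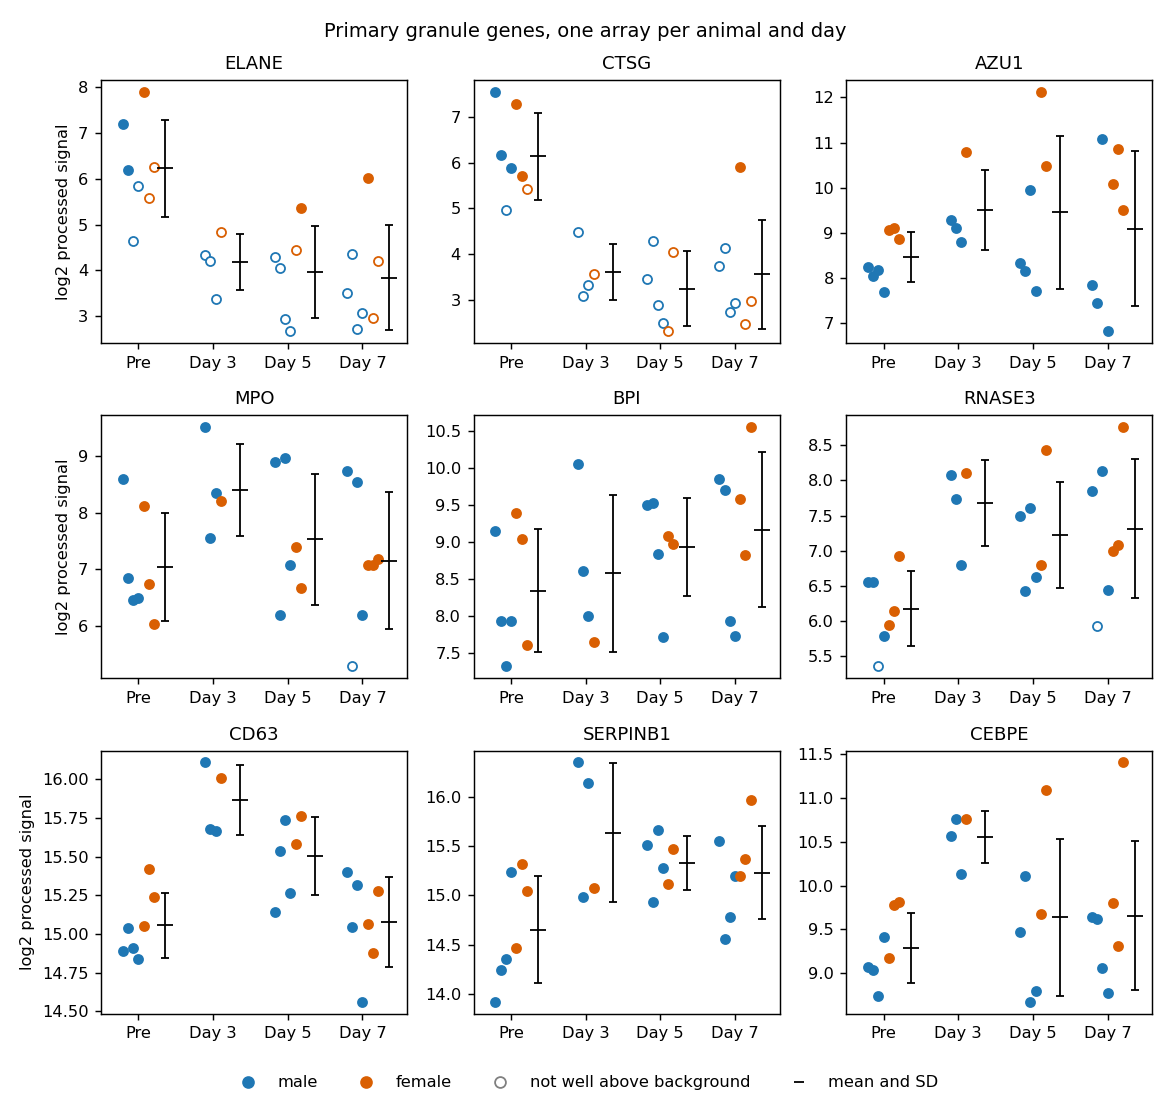
Log2 processed signal of the brightest probe of each of 9 genes (y axis) by group (x axis), 1 point per array, blue male and orange female, open where not well above background, with the mean and SD as a bar. ELANE and CTSG sit lower after irradiation, at day 5 between 2.67 and 5.36 and between 2.33 and 4.29. The day 3 arrays of CD63 and CEBPE all sit above the 7 pre-irradiation arrays, and how many other genes do so was not counted.

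CTSG encodes cathepsin G, a chymotrypsin-like protease of the primary granule. Its log2 signal before irradiation ran from 4.96 over a median of 5.89 to 7.54, and 5 of 7 arrays were well above background. At day 3 it was 4.48 in animal 1, 3.09 in animal 2, 3.32 in animal 4 and 3.58 in animal 7, all below every pre-irradiation array and none well above background. At day 5 it ran from 2.33 over 3.17 to 4.29, again with no array well above background and no overlap with the pre-irradiation arrays.

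The fall in CTSG is therefore a bound at these days: at least 2.94-fold lower at day 3 (adjusted p = 0.00233, limma) and at least 3.14-fold lower at day 5 (adjusted p = 0.000302). For each bound, arrays of the group with none well above background were raised to the lowest signal so marked on each. Those with a higher signal of their own kept it. The other group entered at its own signals, dim arrays included. A bound is therefore not strict where that group holds dim arrays, as for CTSG before irradiation. The measured group means were 6.14 ± 0.95 before irradiation (SD, n = 7), 3.62 ± 0.61 at day 3 (n = 4) and 3.25 ± 0.81 at day 5 (n = 6). At day 7 the level ran from 2.48 over 2.99 to 5.91, and the highest value, of animal 5, was the only one well above background and the only one inside the pre-irradiation range. CTSG was called lower at day 7 too (adjusted p = 0.00219), with no size given as only 1 of 7 arrays was well above background. Within animals the CTSG reading was lower in 4 of 4, 6 of 6 and 7 of 7 pairs at the 3 days, with nearly all later readings at background. CTSG passed the filter through 5 pre-irradiation arrays and 1 of day 7, so it was tested because it was high before irradiation. Without the filter its adjusted p was 0.00653, 0.000672 and 0.0076 at days 3, 5 and 7, so only day 5 stayed called. The bounds depend on the background correction. With local background subtraction the log2 change was −0.85 at day 3 (adjusted p = 0.0127, not called) and −1.09 at day 5 (0.00372), and with normexp it was −0.41 (0.795) and 0.0870 (0.906).

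ELANE encodes neutrophil elastase, the main elastin-cleaving protease of the granule. Before irradiation its log2 signal ran from 4.64 over 6.19 to 7.91, with 3 of 7 arrays well above background. At day 3 the values were 4.33, 4.20, 3.38 and 4.85 in animals 1, 2, 4 and 7, of which 0 were well above background and 3 were below all pre-irradiation arrays. At day 5 the values ran from 2.67 over 4.17 to 5.36, and 5 of 6 were below all pre-irradiation arrays.

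At day 7 ELANE ran from 2.72 over 3.50 to 6.03, and 6 of 7 arrays were below all pre-irradiation arrays; the exception was again animal 5. At day 3 the mean ELANE reading was 4.19, against 6.23 before irradiation, and was not called (limma, adjusted p = 0.0111). No size is given for day 3, as only 3 of 7 pre-irradiation and 0 of 4 day 3 arrays were well above background. It was called lower at day 5 (adjusted p = 0.00422) and day 7 (0.00437). Only 1 of 6 day 5 arrays and 1 of 7 day 7 arrays were well above background, so no size is given. ELANE passed the filter through 3 pre-irradiation arrays and these 2, so it would not have been tested without its higher readings before irradiation. Within animals the ELANE reading was lower in 4 of 4, 6 of 6 and 7 of 7 pairs. Nearly all of these later readings, and most of the pre-irradiation ones, were not well above background, so the pairs are no separate support. The adjusted p at day 5 was 0.826 with normexp background correction, where the change was 0.157. Without the filter on dim probes ELANE was not called on any day (adjusted p = 0.0294, 0.0146 and 0.0146 at days 3, 5 and 7).

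Single animals decided some of these calls without turning a direction. The fits of this paragraph kept the filter that ELANE and CTSG passed mainly through their pre-irradiation arrays. Calls that stayed are therefore no separate support for a fall. CTSG at day 3 lost its call without animal 2, 4 or 7 (adjusted p = 0.0151, 0.0166 and 0.00862) and at day 7 without animal 1, 2, 4, 6 or 7 (0.00991, 0.00728, 0.00795, 0.00697 and 0.00772). At day 5 CTSG stayed called whichever animal was left out, with an adjusted p of at most 0.00192. ELANE lost its call at day 5 without animal 1, 2, 4, 5, 6 or 7 (0.00528 to 0.0164) and at day 7 without animal 1, 2, 3, 4, 6 or 7 (0.00543 to 0.0230), and at day 3 it passed without animal 3 (0.00447). With scan session as a term, which rests on the pre-irradiation array of animal 5, the highest of the 7 for ELANE, ELANE (adjusted p = 0.000804 at day 3) and CTSG (0.000348) were both called lower at day 3, and no size is given for readings at background. Within session 1 alone, ELANE (adjusted p = 0.00101) and CTSG (0.000518) were also called lower at day 7, but all 6 day 7 arrays of that session were at background for both, so no size is given.

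The PRTN3 probe was well above background on 1 of 24 arrays, that of animal 1 before irradiation, and was not tested. PRTN3 encodes proteinase 3, the closest relative of elastase in the granule. Its signal ran from 3.21 over 3.77 to 5.85 on the pre-irradiation arrays, and on those of days 3, 5 and 7 from 2.80 to 3.95, from 2.31 to 4.05 and from 2.51 to 4.03. With both sides at or near background no fold is given.

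AZU1 encodes azurocidin, an antimicrobial protein of the same family that has lost its protease activity, and its probe was well above background on all 24 arrays. Before irradiation it ran from 7.70 over 8.25 to 9.12, and the 3 females (8.86 to 9.12) were above all 4 males (7.70 to 8.25). At day 3 it was 9.29, 9.12, 8.80 and 10.79 in animals 1, 2, 4 and 7, a log2 change of 1.04 (SE 0.39, adjusted p = 0.0551). At day 5 it ran from 7.71 over 9.14 to 12.13 (change 1.0, adjusted p = 0.217) and at day 7 from 6.83 over 9.50 to 11.08 (change 0.64, adjusted p = 0.471). Single animals moved these changes, to 0.67 at day 3 without animal 7, 0.58 at day 5 without animal 6 and 0.26 at day 7 without animal 3.

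No day was called for AZU1, and its arrays varied more after irradiation, though a difference in spread was not tested. The SD between arrays was 0.55 on the pre-irradiation arrays, and for days 3, 5 and 7 it was 0.89, 1.69 and 1.71. A larger SD at day 7 than before was not particular to AZU1, as in CEBPE (0.85 against 0.40) and RNASE3 (0.99 against 0.54). Among the members tested, only SERPINB1 had a smaller one (0.47 against 0.54). At day 7, AZU1 was above its own pre-irradiation value in animals 3, 5, 6 and 7, by 2.90, 1.02, 1.75 and 0.65, and below it in animals 1, 2 and 4, by differences of −0.39, −0.60 and −0.87. At day 5 the 6 within-animal differences were all positive, but those of animals 1, 2 and 4 were only 0.09, 0.12 and 0.01.

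**Figure D2:**
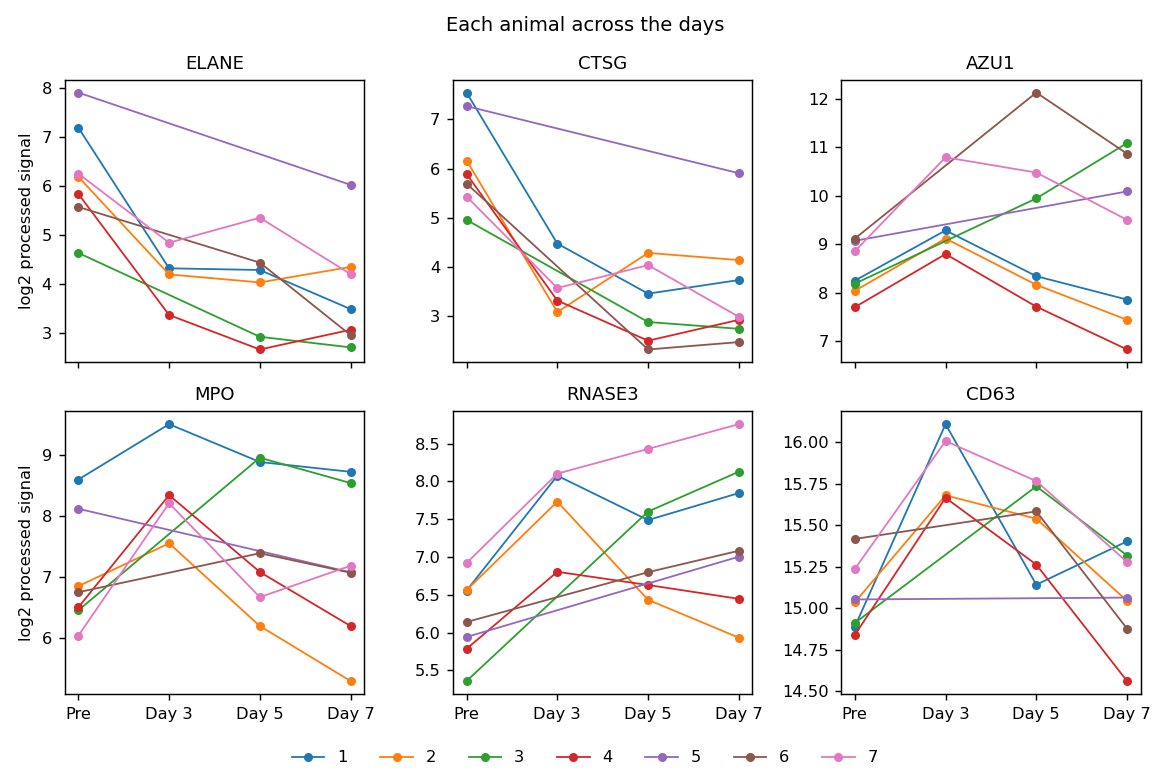
Log2 processed signal (y axis) of 6 genes in each animal, 1 line per numbered animal, across the groups (x axis). Every line of ELANE and CTSG ends below its start, mostly at readings not well above background, whereas those of AZU1 at day 7 range from 6.83 to 11.08.

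MPO encodes myeloperoxidase, the enzyme that makes hypochlorous acid and the most abundant protein of the primary granule. The brighter of its 2 probes ran from 6.04 over 6.75 to 8.6 before irradiation. At day 3 it was 9.50, 7.55, 8.34 and 8.21 in animals 1, 2, 4 and 7, higher than before in each of these 4 animals, but only animal 1 was above all pre-irradiation arrays. The log2 change was 1.36 at day 3 (95% interval 0.26 to 2.45, adjusted p = 0.0536), 0.49 at day 5 (−0.64 to 1.61, adjusted p = 0.502) and 0.11 at day 7 (−1.01 to 1.23, adjusted p = 0.898). The intervals at days 5 and 7 leave room for a change of 1 on the log2 scale either way at day 7 and upward at day 5. The MPO change at day 7 was −0.22 without animal 3, −0.06 without animal 7 and 0.39 without animal 2. The second MPO probe was well above background on 0 of 24 arrays and was not tested.

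BPI encodes the bactericidal permeability-increasing protein, which binds endotoxin of Gram-negative bacteria. Its brightest probe, at chr10:26118072-26118131, ran from 7.32 over 7.94 to 9.40 before irradiation, and was 10.06, 8.61, 8.00 and 7.65 at day 3 in animals 1, 2, 4 and 7. It ran from 7.72 over 9.03 to 9.52 at day 5 and from 7.74 over 9.59 to 10.56 at day 7, where 4 of 7 arrays were above all pre-irradiation arrays. The log2 changes of 0.23, 0.59 and 0.83 at days 3, 5 and 7 were not called (adjusted p = 0.748, 0.252 and 0.198). The day 3 change turned to −0.12 without animal 1 and was 0.42 without animal 7.

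The other 2 BPI probes lie across splice junctions of the same gene, since each spans more than its 60 bases in the genome. Neither was called on any day, and the smallest of their 6 adjusted p was 0.05. The second probe was well above background on 1 of 7 arrays before irradiation and on 6 of 7 at day 7, and the third on 0 of 7 and on 6 of 7, so their baseline is at background and no size of change is drawn from them. As a bound, day 7 of the third was at least 1.57-fold above pre-irradiation, a bound that did not pass the test (adjusted p = 0.0674).

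**Figure D3:**
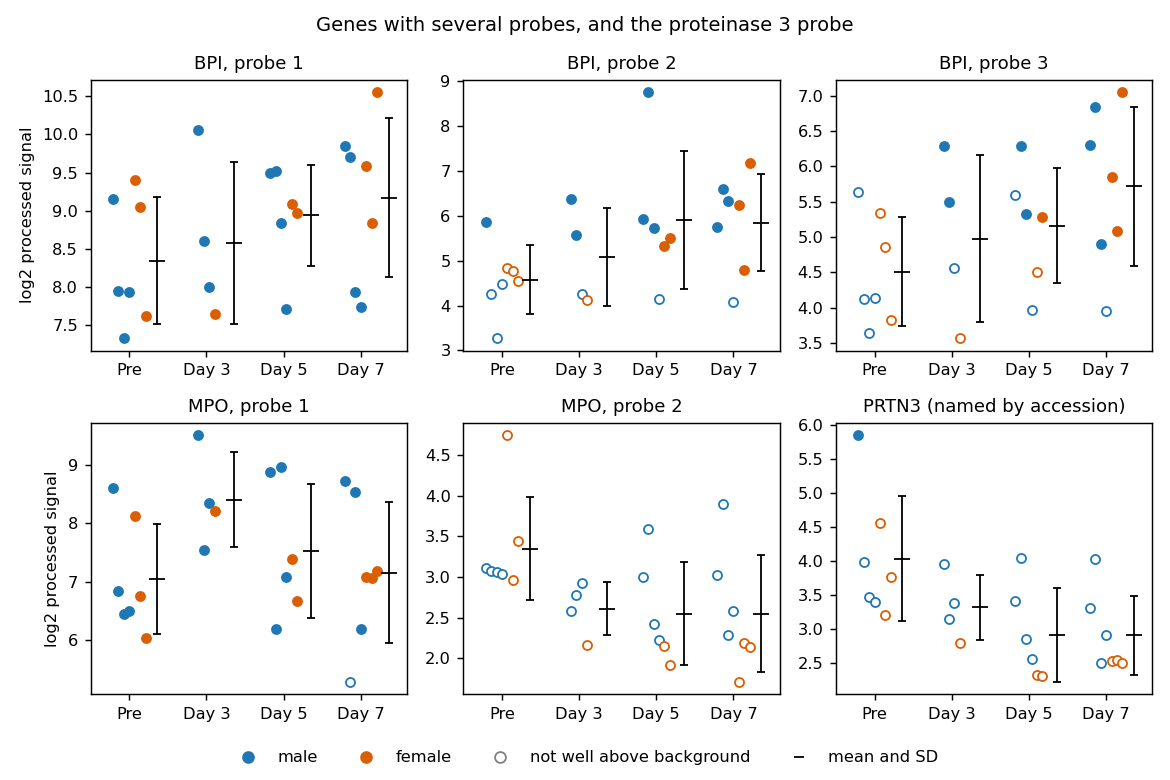
Log2 processed signal (y axis) by group (x axis) of the 3 BPI probes, the 2 MPO probes and the PRTN3 probe, with points as in the plot of all members. The 3 BPI probes have higher means at day 7 than before irradiation, 9.17 against 8.35, 5.85 against 4.58 and 5.72 against 4.51, of which the dimmer 2 start from readings mostly or all at background, and the second MPO probe and the PRTN3 probe stay at background on all or all but 1 array.

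RNASE3 encodes the ribonuclease known as eosinophil cationic protein, which is a major eosinophil granule protein and is also made in small amounts by neutrophils. It ran from 5.36 over 6.14 to 6.92 before irradiation and was 8.08, 7.73, 6.80 and 8.10 at day 3 in animals 1, 2, 4 and 7, with 3 of 4 above all pre-irradiation arrays. It rose by 1.5 on the log2 scale at day 3 (SE 0.33, adjusted p = 0.00477), and was higher in 4 of 4 animals. The changes of 1.05 at day 5 (adjusted p = 0.0244) and 1.13 at day 7 (adjusted p = 0.0422) were not called, and RNASE3 was higher in 5 of 6 and 6 of 7 animals.

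Eosinophil and basophil markers were also higher on average at day 3 and lower afterwards, with few calls. Of 13, 11 had a probe and 10 were tested. At day 3, 7 of 10 had a positive change (median 0.81), 3 had an unadjusted p under 0.05 and 0 were called. The medians at days 5 and 7 were −0.56 and −1.36, and PRG3, an eosinophil granule protein, was lower at days 5 and 7 (log2 change −1.43 and −2.35, adjusted p = 0.00074 and 3.78e-05). Their mean level ran from 7.49 to 8.75 on the pre-irradiation arrays, and on those of days 3, 5 and 7 from 8.06 to 9.26, from 6.11 to 9.08 and from 5.77 to 8.52, and their part in the RNASE3 values was not tested. The near-identical RNASE2 had log2 changes of 1.55, 0.63 and 0.69 (adjusted p = 0.105, 0.511 and 0.466), and whether the RNASE3 probe also takes up RNASE2 transcripts was not tested.

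CD63 encodes a tetraspanin of primary granule and lysosome membranes that many blood cells carry, platelets included. It ran from 14.84 over 15.04 to 15.42 before irradiation. At day 3 it was 16.11, 15.68, 15.67 and 16.01 in animals 1, 2, 4 and 7, all above every pre-irradiation array, and it rose by 0.81 on the log2 scale (SE 0.16, adjusted p = 0.00333), or 1.75-fold. It ran from 15.14 over 15.56 to 15.77 at day 5 (change 0.45, adjusted p = 0.0306) and from 14.56 over 15.06 to 15.40 at day 7 (change 0.02, 95% interval −0.31 to 0.36, adjusted p = 0.929). The day 5 change of CD63 was called after quantile normalization (0.78, adjusted p = 0.0024) and with local background subtraction (0.66, adjusted p = 0.0046).

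Platelet markers moved in the same order of days: 9 of 10 had a probe, and 9 of 9 were higher at day 3, 2 at day 5 and 0 at day 7. Their mean level ran from 9.24 to 10.73 on the pre-irradiation arrays, and on those of days 3, 5 and 7 from 12.56 to 13.51, from 10.51 to 11.80 and from 9.61 to 11.30. GP1BA, a platelet adhesion receptor with no pre-irradiation array well above background, was at least 4.36-fold higher at day 3 (limma, adjusted p = 3.88e-05). The part of the platelet markers in the CD63 values was not tested.

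SERPINB1 encodes the leukocyte elastase inhibitor, a cytosolic inhibitor of elastase, cathepsin G and proteinase 3. It ran from 13.92 over 14.46 to 15.32 before irradiation and was 16.35, 14.98, 16.14 and 15.08 at day 3 in animals 1, 2, 4 and 7. Its log2 changes of 0.98, 0.67 and 0.58 at days 3, 5 and 7 were not called (adjusted p = 0.0444, 0.0405 and 0.115), although it was higher in 4 of 4, 5 of 6 and 6 of 7 animals. After quantile normalization its change at day 5 was 0.97 and called (adjusted p = 0.00362).

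CEBPE encodes the transcription factor C/EBP epsilon, needed for late granulocyte maturation and for many secondary granule genes. It ran from 8.74 over 9.17 to 9.81 before irradiation and was 10.57, 10.76, 10.13 and 10.76 at day 3 in animals 1, 2, 4 and 7, all above every pre-irradiation array. It rose by 1.27 on the log2 scale at day 3 (SE 0.23, adjusted p = 0.00196), or 2.41-fold. At day 5 it ran from 8.67 over 9.58 to 11.09 and at day 7 from 8.77 over 9.62 to 11.40, with changes of 0.35 and 0.37 that were not called (adjusted p = 0.466 and 0.441), and the groups overlapped.

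Both the 3 rises and the fall at day 3 depended on the settings. With the animal as a block, RNASE3, CD63 and CEBPE had log2 changes of 1.22, 0.86 and 1.22 (adjusted p = 0.00832, 0.0218 and 0.0142) and CTSG an adjusted p of 0.00288, which leaves 1 of 9 genes called in place of 4. With scan session as a term these 3 had log2 changes of 1.77, 0.82 and 1.26 (adjusted p = 0.0787, 0.0362 and 0.181). With local background subtraction and without the filter on dim probes, CD63 (0.00108 and 0.00359) and CEBPE (0.0006 and 0.00262) stayed called, while RNASE3 (0.0053 and 0.00693) and CTSG (0.0127 and 0.00653) did not. RNASE3 lost its call whichever of the 7 animals was left out (adjusted p from 0.00687 to 0.0231). CD63 lost it without animal 1, 2, 3, 4, 5 or 7 (0.0242, 0.012, 0.00772, 0.0149, 0.00544 and 0.0137) and CEBPE without animal 1, 2, 4 or 7 (0.0129, 0.0137, 0.00668 and 0.00594).

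**Figure D4:**
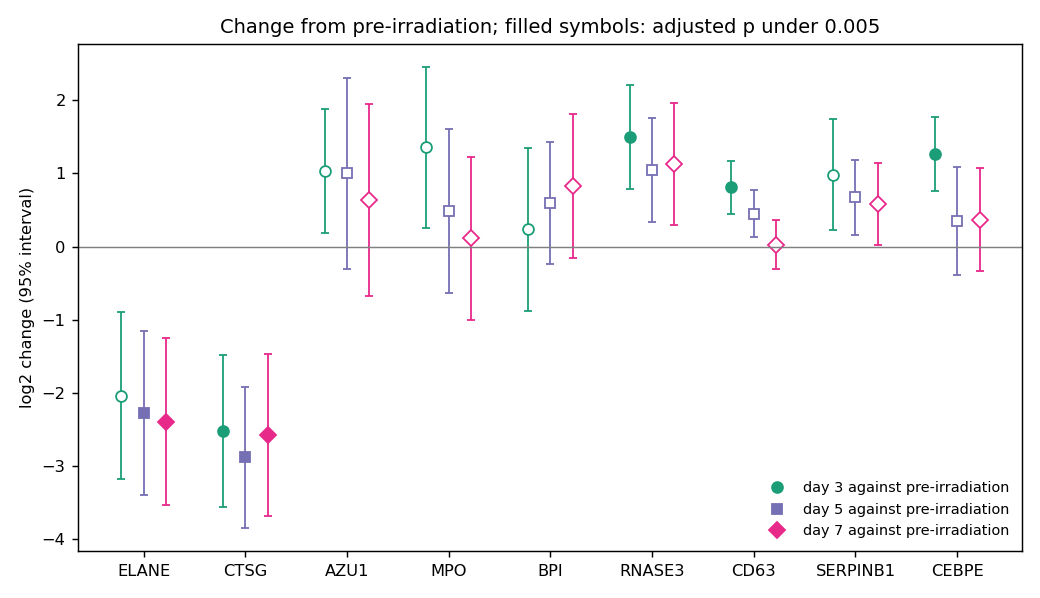
Log2 change from pre-irradiation (y axis) with its 95% interval for each of 9 genes (x axis) at days 3, 5 and 7, filled where the adjusted p is under 0.005. ELANE and CTSG are plotted below 0 on all 3 days, from readings after irradiation that were mostly not well above background, so that their position is no measured size, and the other 7 genes lie between 0.02 and 1.5.

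Between the later days no member was called. From day 3 to day 5, 0 of 9 genes were lower or higher, where 0.0368% of all genes were called lower and 0% higher, and 0 of 9 had an unadjusted p under 0.05, beside 1211 of 10880 genes. From day 3 to day 7, 0 of 9 were called, where 1.23% of genes were lower and 0.368% higher, and 2 of 9, CD63 and CEBPE, had an unadjusted p under 0.05, beside 3727 of 10880 genes. From day 5 to day 7, 0 of 9 were called, where 0.00919% were lower and 0% higher, and CD63 alone had an unadjusted p under 0.05, beside 2293 of 10883 genes.

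CD63 was the member nearest to a difference between days, with all 7 day 7 arrays below all 4 day 3 arrays (log2 change −0.79, 95% interval −1.23 to −0.34, adjusted p = 0.0247). In a fit of all 4 groups together, the adjusted p of that change was 0.00257, so 1 of 9 genes was then called. ELANE and CTSG were at background on nearly all arrays of both days, so no change between days is given for them.

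The change at day 7 was also set between the sexes, with 4 males and 3 females. The difference of females minus males ran from −0.33 for CD63 to 0.88 for AZU1, and 0 of 9 genes passed limma's test of the interaction, with adjusted p from 0.785 for CD63 upward and no unadjusted p under 0.05. With the animal as a block, 0 of 9 passed as well. ELANE and CTSG were each well above background on 1 of the 7 day 7 arrays, so this comparison says little of them.

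Across the 24 arrays ELANE and CTSG were each the gene most alike to the other among 10657 genes compared, with Pearson r = 0.91, and r = 0.79 after the group means were taken away. ELANE was well above background on 5 of the 24 arrays and CTSG on 6, so r rests mostly on readings at background. The second MPO probe, at background on every array, had means of 3.35 before irradiation and 2.61, 2.55 and 2.55 after it. The arrays also share animals and scan sessions, and r is given as a description. Next to them came RTD1C (r = 0.88) and RTD1B (0.88) for ELANE and RTD1B (0.91) and RTD1A (0.90) for CTSG, the rhesus theta-defensin genes, which code for antimicrobial peptides of leukocyte granules. ELANE and CTSG correlated with the other 7 members at r between −0.52, for CTSG with SERPINB1, and 0.10, for ELANE with BPI. After the group means were taken away, r ran from −0.18, for ELANE with SERPINB1, to 0.57, for CTSG with BPI, and was 0.55 for ELANE with BPI and 0.52 for ELANE with CEBPE.

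The other 7 members each had other nearest genes. AZU1 was nearest to NR2F6 (r = 0.86), AMDHD1 (0.85) and POU2F2 (0.85), MPO to LY6E (0.82), ADA2 (0.82) and LRMDA (0.80), and BPI to PARM1 (0.79), TM4SF1 (0.79) and PLSCR1 (0.78). RNASE3 was nearest to GBA2 (0.85), SLX1A (0.82) and MFSD11 (0.82), CD63 to ENTPD6 (0.88), MAMU-E (0.88) and MAMU-A (0.87), SERPINB1 to RGS19 (0.87), TNFAIP6 (0.87) and MON1B (0.87), and CEBPE to SLITRK4 (0.82), IFRD1 (0.82) and STXBP5 (0.81). After removal of group means these r lay between 0.60, for CD63 with ENTPD6, and 0.91, for CEBPE with STXBP5. BPI and MPO, whose proteins are stored in the same granule, correlated at r = 0.24 and AZU1 with MPO at r = 0.30.

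A wider list of primary granule contents and of enzymes that process or share the compartment held 22 genes, of which 14 were tested. At day 3, 6 were higher and 0 lower (median log2 change 1.08), at day 5, 4 higher and 1 lower (0.62), and at day 7, 1 higher and 1 lower (0.27). The gene that fell was DEFA4, a neutrophil alpha-defensin of the primary granule, at −4.21 on day 5 (SE 0.84, adjusted p = 0.00176) and −3.69 on day 7 (SE 0.71, adjusted p = 0.00151); at day 3 its change was −2.74 (adjusted p = 0.028). The largest rises were in 2 lysosomal enzymes, CTSD, the aspartic protease cathepsin D, at 1.83 on day 3 (adjusted p = 0.000126), 1.68 on day 5 and 1.31 on day 7, and GAA, the acid alpha-glucosidase, at 1.61 on day 3 and 1.21 on day 5. Lysosomal enzymes are made by many leukocytes besides neutrophils.

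**Figure D5:**
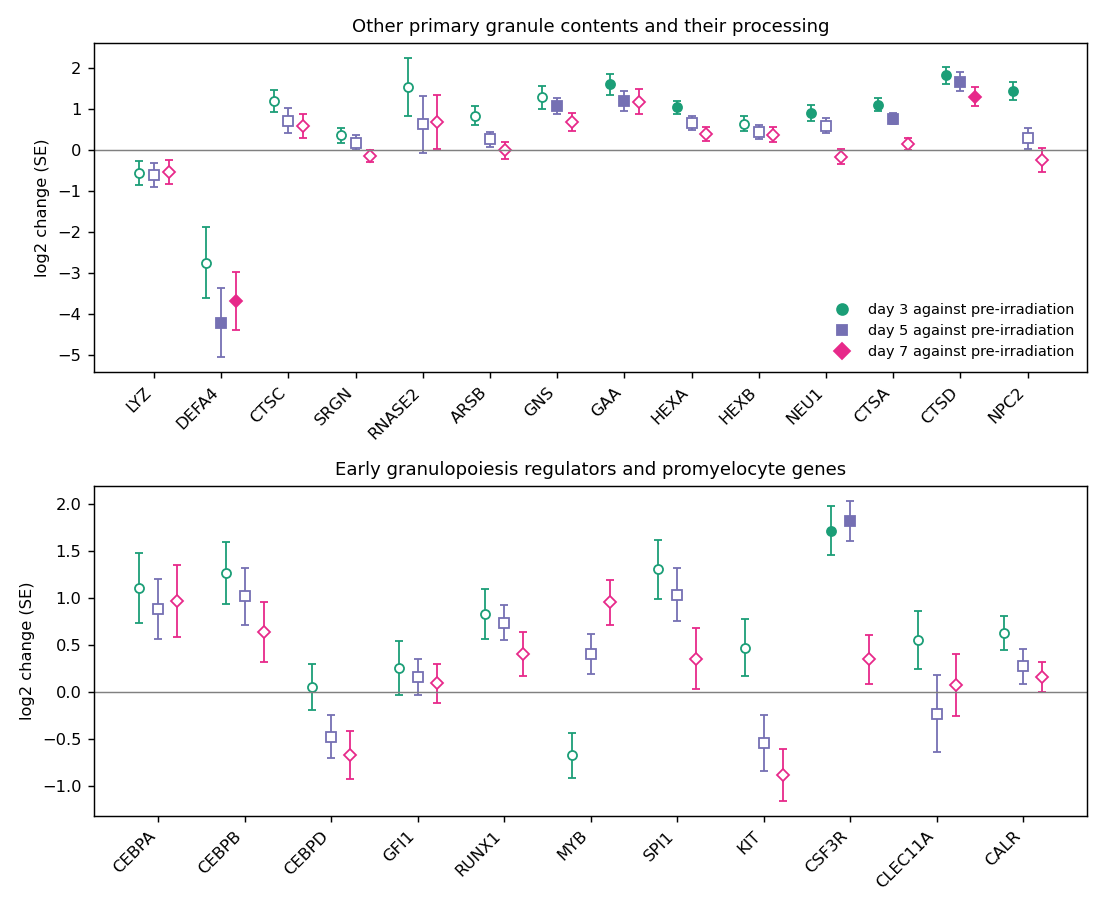
Log2 change from pre-irradiation with its SE (y axis) for the tested genes of the wider primary granule list and of the early granulopoiesis list (x axis) at days 3, 5 and 7, filled where the adjusted p is under 0.005. DEFA4 lies at −2.74, −4.21 and −3.69, and CTSD and GAA lie above 1 on all 3 days.

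Among 13 regulators and genes of early granulopoiesis, 11 were tested. CSF3R, the receptor for the neutrophil growth factor G-CSF, was higher at day 3 (1.72, adjusted p = 0.000757) and day 5 (1.82, adjusted p = 3.43e-05), and 0 of 11 were called at day 7, where 4 had an unadjusted p under 0.05. None was lower on any day. The median changes of the list were 0.63, 0.40 and 0.35. CSF3R also stays on mature neutrophils, whose own list of 15 tested genes held 3, 3 and 2 called higher and 0 lower at days 3, 5 and 7. FCGR3 was the largest there, at 2.84 on day 3 and 2.45 on day 5, followed by S100A12, a calcium-binding alarmin, at 2.65 on day 7. The mean level of the mature neutrophil list ran from 11.69 to 12.74 before irradiation and from 12.59 to 14.05 at day 3, and their part in the values of the members was not tested.

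Genes of the later-formed secondary and tertiary granules went both ways: of 14 tested, 3 were higher and 1 lower at days 3 and 5, and 2 higher and 0 lower at day 7. LCN2, the siderophore-binding lipocalin, was higher at day 5 (1.87) and day 7 (3.05), ITGAM, the integrin alpha chain CD11b, was higher on all 3 days (1.73, 1.5 and 1.69), and CRISP3, a cysteine-rich secretory protein of the granule, was at least 4.10-fold lower at day 3 and at least 4.35-fold lower at day 5. Of 8 other inhibitors of neutrophil proteases, 6 were tested and A2M, alpha-2-macroglobulin, alone was called, at 3.08 on day 3 (SE 0.63, adjusted p = 0.0036).

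Some other blood cell markers moved on the same days as ELANE and CTSG. Of 10 erythroid markers tested, 8, 9 and 7 were lower at days 3, 5 and 7 (medians −3.28, −4.48 and −3.87), and of 7 B-cell markers 7 were lower on each day (−3.53, −3.92 and −3.67). Of 9 monocyte markers 2 were higher on each day (0.93, 0.81 and 0.87). None of the 8 T-cell markers tested was called on any day (medians −0.49, −0.18 and 0.23), nor any of the 7 NK-cell and cytotoxic markers (0.42, 0.19 and 0.21). Their part in the values of the members was not tested.

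Progenitor markers were thin in these samples. Of 8, 7 had a probe and 3 were tested, KIT, SPINK2 and MEIS1, while the probe of CD34 did not pass the filter. The mean level of the 3 ran from 9.87 to 10.61 on the pre-irradiation arrays, and on those of days 3, 5 and 7 from 9.74 to 10.62, from 9.27 to 10.39 and from 8.75 to 9.85, and 0 of 3 were called against pre-irradiation on any day, where 2, 1 and 2 had an unadjusted p under 0.05. Their part in the values of ELANE and CTSG was not tested.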

How the data were processed

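RNA of 24 blood samples was hybridised to one-colour Agilent arrays. The authors' deposited scanner output gives processed signals, linear intensities from which local background and gradients were removed. The labels name Feature Extraction 10.7 and the file headers 12.0.2.2. The array is a rhesus design by labels and headers and a human one by the study's methods. The authors' deposited series matrix holds log2 values normalized to the median array, and was used as an alternative, in which 6 of 9 genes have rows.

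Here processed signals were taken to log2, spots with an outlier or non-uniformity flag were dropped, spots of a probe were averaged, and each array was shifted to the median array (by −0.87 to 2.03). Probes marked well above background on 4 or more arrays (27112 of 43603) were tested in 7 comparisons with limma 3.58.1 in R 4.3.3, each fitted on its own groups, two-sided, called at an adjusted p under 0.005. Figures used matplotlib in Python. The number of arrays limits the precision, and scripts were tested on simulated data. Of all probes, 23054 were named by the scanner output and 906 through accessions (RefSeq). The replicate number was taken as the animal. Same-numbered arrays' deviations from group means correlated at median r of 0.21 to 0.52, against medians of −0.09 to −0.05 between different numbers. Single pairs overlapped, with a lowest same-numbered r of 0.13 and a highest r of 0.29 between different numbers. Same-numbered pre-irradiation and day 7 arrays also shared a slide and scan session, so their r cannot tell the animal from the slide. All 10 members were named with every probe; of other lists, the called genes with the largest change against pre-irradiation, at most 3, and for each member the 3 genes with the highest r. Members and lists were chosen with earlier results of these data known. Alternatives were scaling, background, filter, fit, block and leaving out animals.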

Additional observations from a re-analysis of the deposited data

Results flagged for a closer look

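CEBPE at day 7 in animal 7 had a log2 signal of 11.40, far above the next highest array of that day at 9.80. It was the only value to stand apart among 36 sets of arrays of 1 gene and 1 day, and chance alone sets about 5% of such sets apart. Without animal 7 the log2 change of CEBPE at day 7 was 0.16 in place of 0.37, and neither was called. The same animal had the highest CEBPE value at day 5, 11.09.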

How the results depend on the processing

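Of the 9 genes, 4, 2 and 2 were called at days 3, 5 and 7 against pre-irradiation. With the animal as replicate block the counts were 1, 2 and 2. Leaving out each replicate gave 0 to 3, 1 to 2 and 0 to 2. At day 3, 2 were called under several alternatives, but not the same 2. With all 4 groups in one fit, 1 was higher and 1 lower. With scan session or slide as a block, which rest on the pre-irradiation array of animal 5, 0 were higher and 2 lower. Without a filter on dim probes, with local background subtraction and in the authors' series matrix, 2 were higher and 0 lower. At day 7 against day 3 the fit of all 4 groups called 1. At day 5, 4 were called after quantile normalization, 1 at the 75th percentile scaling and without the filter, and 0 with slide as a block, under the stricter filter and in the matrix. At day 7, 1 was called at the 75th percentile and 0 without the filter, under the stricter filter, with local background subtraction and in the matrix. The stricter filter and the matrix hold neither ELANE nor CTSG. Normexp background correction called 0 on each day, also with maximum likelihood estimates, and turned ELANE at day 5 to 0.157 and CTSG to 0.0870 (0.155 and 0.0854 with maximum likelihood), not called; under it the SD of log2 signals per array ran from 1.08 to 2.72, against 3.01 to 3.32 in processed signals, and the cause was not tested. The maximum likelihood estimates and local background subtraction (offset 50) were added after seeing the data; the latter gave −1.09 for CTSG at day 5 (adjusted p = 0.00372). Over all probes, 3656, 4542 and 2954 were called at days 3, 5 and 7, against 139, 239 and 317 with normexp; the replicate block gave 762 at day 3, the session block 814 and 1476 at days 3 and 5, and the slide block 446 and 42. From day 3 to day 7 the count was 343, against 2176 in the fit of all 4 groups and 0 with the replicate block. Median changes of the 9 genes against pre-irradiation kept their sign and moved by less than 1 SD between replicates, but by over 1.5 times at day 5 (0.16 with normexp, 0.20 with the session block, 0.78 without the filter) and day 7 (0.16 without animal 7, 0.57 with quantile normalization, 0.62 in the matrix, 0.64 without the filter). From day 5 to day 7 the median (−0.098) was above 0 with quantile normalization (0.060), normexp (0.071, and 0.073 with maximum likelihood), the session block (0.12) and without animal 6 (0.036) or 7 (0.0083), and that of the sexes (0.26) was −0.13 without animal 7, not called. CD63 at day 7 was 0.57 after quantile normalization (adjusted p = 0.0359) in place of 0.02. Dim signal limits ELANE, CTSG and PRTN3.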
